A study of Mus musculus with 16 samples.

Results

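The 10 genes described here encode receptors and co-receptors for transforming growth factor β (TGF-β), activins and bone morphogenetic proteins (BMPs). They were taken by symbol from a count table of 35275 mouse genes: the type I receptors Tgfbr1, Acvrl1, Acvr1, Acvr1b and Bmpr1a, the type II receptors Tgfbr2, Acvr2a and Bmpr2, and the co-receptors Tgfbr3 and Eng. All 10 passed the filter on low counts and were among the 13080 genes tested. The rule itself uses no measured value, but the members were chosen with earlier results of these data known.

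Ligands of this family bind a type II receptor kinase, which phosphorylates a type I receptor, and the type I receptor phosphorylates receptor-regulated Smad proteins. Tgfbr1 and Acvr1b act mainly through Smad2 and Smad3, whereas Acvrl1, Acvr1 and Bmpr1a act mainly through Smad1 and Smad5. Smad7, an inhibitory Smad that is itself induced by TGF-β, binds type I receptors, competes with receptor-regulated Smads and recruits ubiquitin ligases to the receptors. In macrophages TGF-β is known as a deactivating cytokine.

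RNA was sequenced from 16 libraries of bone marrow macrophages, 4 in each of 4 groups. The groups were Smad7-deleted (KO) cells with TGF-β1, KO cells left untreated, Smad7 fl/fl cells with TGF-β1 and Smad7 fl/fl cells left untreated. The design asks how macrophages respond to TGF-β1 and what loss of Smad7 does to expression and to that response. KO mice carried 2 floxed Smad7 alleles and CAGGCre-ER, a tamoxifen-inducible Cre under a broadly active promoter, and the fl/fl mice were littermates without Cre. All were C57BL/6, all received tamoxifen at 20 mg/kg on 5 days at 1 month of age, and all were killed 2 weeks later. Loss of Smad7 was global, and it cannot be told apart from the presence of activated Cre. Tibial marrow was cultured in 15% serum, with 12 ng/ml CSF-1 over the first 24 hours and 120 ng/ml over the next 48 hours. Serum was then withdrawn for about 12 hours, and the treated cells received 10 ng/ml TGF-β1 for 4 hours. The labels do not say whether replicates came from separate animals, so p-values measure the spread between these libraries, which may be technical. The labels also speak of 8 cDNA libraries where 16 are listed.

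Total counts ran from 16865591 to 23741079 per library. Of 10 macrophage markers, 9 were found in the table, all above 1 CPM in each group, with Lyz2 between 6527 and 16016 CPM (CPM, counts relative to the library total after scaling by trimmed means of M-values). Smad7, the deleted gene, was at 19.7, 14.8, 10.8 and 10.3 CPM in the KO TGF-β1 libraries (replicates 1 to 4), and at 5.87, 1.28, 1.64 and 1.99 CPM in the KO untreated libraries. In fl/fl cells it was at 37.2, 40.9, 45.6 and 58.3 CPM with TGF-β1 and at 3.89, 5.24, 6.03 and 4.79 CPM untreated. With TGF-β1 every KO library lay below every fl/fl library, and untreated the KO libraries lay below the fl/fl ones except replicate 1. For Smad7, the log2 fold change of KO over fl/fl was -1.71 with TGF-β1 (edgeR adjusted p = 0.122) and -0.89 untreated (edgeR adjusted p = 0.423) in the fit to all 16 libraries. With KO untreated replicate 1 left out of the fit, Smad7 passed the test in both, at -1.70 (edgeR adjusted p = 0.000828) and -1.63 (edgeR adjusted p = 0.0307). The counts cover the gene as a whole, so which exons remained cannot be read from them.

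The library labelled KO untreated replicate 1 stood apart in its receptor levels too. Of the 10 receptors, 4 lay inside the range of the KO TGF-β1 libraries and outside that of the other 3 KO untreated libraries (Tgfbr1, Tgfbr2, Bmpr2 and Tgfbr3), and none did the opposite. Another 3 lay inside both ranges and 3 inside neither. The share of all genes placed in these ways is not given here, so the counts describe this library and not a trait of the receptors. Pmepa1, a TGF-β target gene, had 320 CPM there, which is inside the range of the KO TGF-β1 libraries (292 to 343 CPM) and far above the other 3 KO untreated libraries (1.69 to 2.73 CPM). The Smad7 level of this library lay inside the range of the fl/fl untreated libraries. Whether its label or its treatment was in error was not tested. The tests of the receptors that compare this library are therefore given with it and without it. It also enters the other edgeR tests, because the spread of a gene is estimated over all libraries in the fit. The p-values of single receptors in fl/fl cells thus depend on it too, and most are given only with it. The libraries fl/fl TGF-β1 replicate 4 and KO untreated replicate 2 also differed from their groups, with 2266 and 1422 genes more than 1 log2 unit from the mean of the other 3, against 1410 for KO untreated replicate 1 and at most 848 for any other library.

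Among the 10 receptors, the TGF-β receptor pair had the highest levels per gene length. In FPKM, the deposited level per gene length, Tgfbr1 averaged 148 ± 8.81 in KO TGF-β1, 35.0 ± 13.6 in KO untreated without replicate 1, 140 ± 40.8 in fl/fl TGF-β1 and 45.3 ± 4.45 in fl/fl untreated libraries (SD, n = 4, or 3 without replicate 1). Tgfbr2, in the same order of groups, averaged 35.5 ± 2.68, 42.5 ± 1.01, 38.2 ± 1.68 and 55.8 ± 2.22 FPKM. In fl/fl untreated cells Tgfbr2 thus stood above Tgfbr1 in FPKM with no overlap between libraries, whereas in both TGF-β1 groups Tgfbr1 stood above Tgfbr2 with no overlap. In KO untreated cells the 2 genes overlapped, with replicate 1 or without it; with it Tgfbr1 averaged 60.8 ± 52.8 FPKM and Tgfbr2 41.4 ± 2.31 FPKM (n = 4).

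The next levels belonged to Eng, Acvrl1, Bmpr2, Acvr1b and Acvr1, at group means between 5.53 and 28.7 FPKM without KO untreated replicate 1. Acvrl1 and Bmpr2, and Bmpr2 and Acvr1b, overlapped with their neighbour in the order of FPKM levels in both fl/fl groups, so their ranks there are not distinct. Acvr2a was low, between 0.815 and 3.76 FPKM over the 16 libraries. Tgfbr3 lay between 0.0849 and 0.762 FPKM and Bmpr1a between 0.0196 and 0.205 FPKM. Bmpr1a, a receptor for BMP2 and BMP4, had from 2 to 28 counts in a library, which leaves wide errors on any difference.

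**Figure D1:**
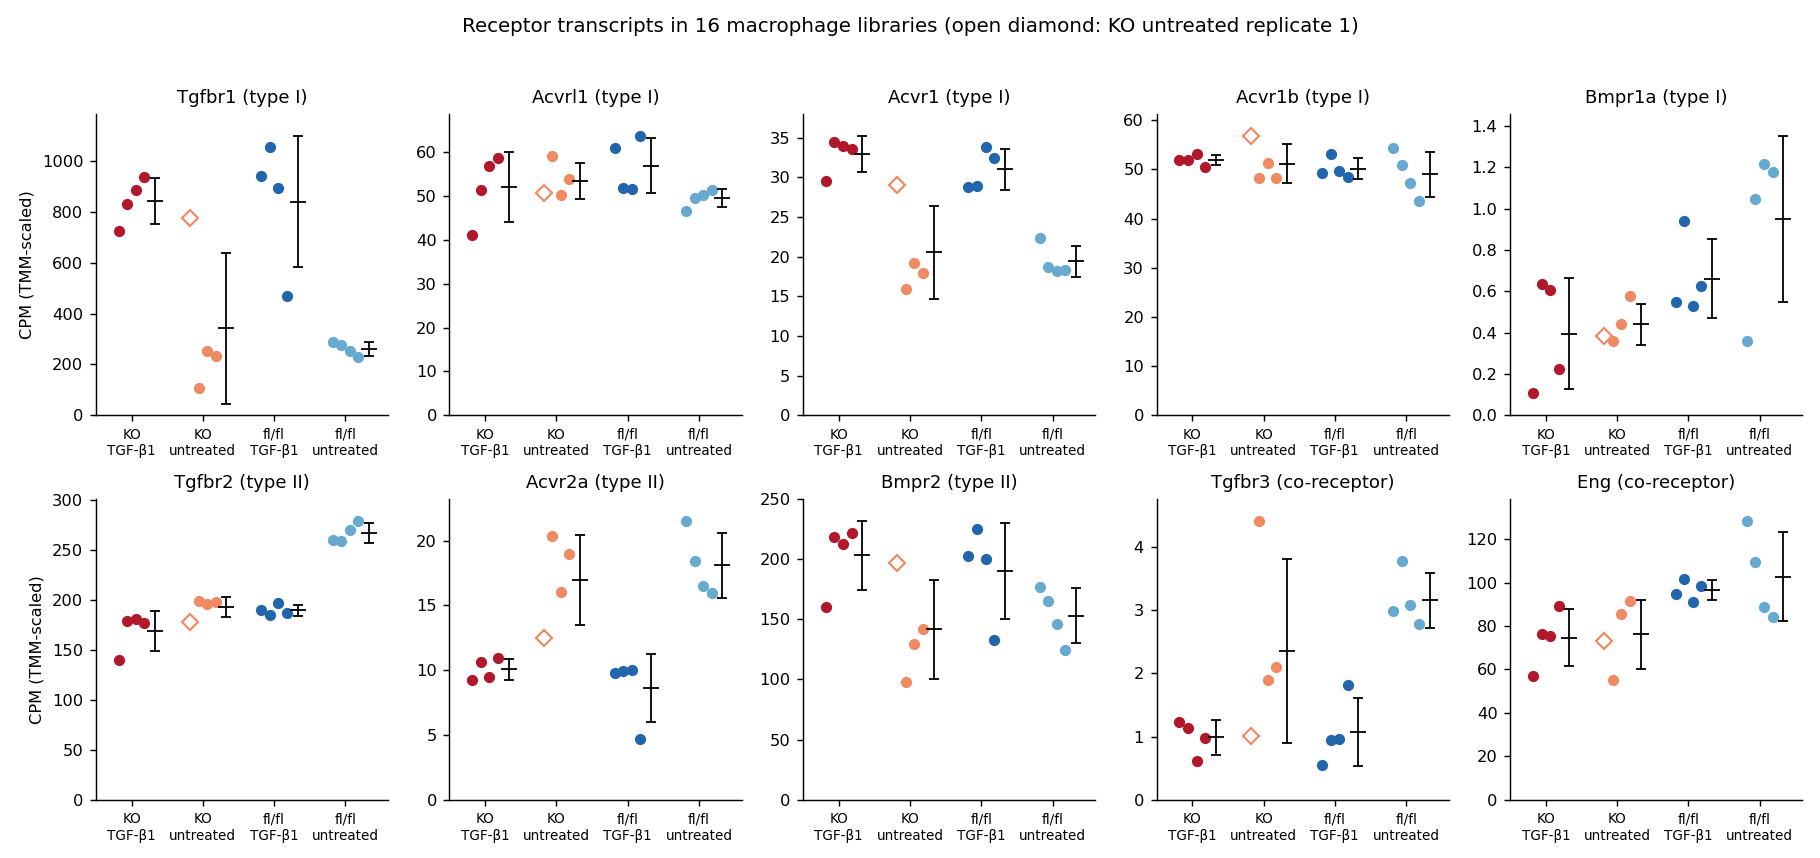
CPM (TMM-scaled) of each receptor gene in the 16 libraries, by group, with the mean and SD of 4 libraries as a black bar beside the points; the open diamond is KO untreated replicate 1. Tgfbr1 and Acvr1 lie higher, and Acvr2a lower, in each TGF-β1 library than in each untreated library of the same genotype, apart from the diamond for Tgfbr1.

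The bases just upstream of 4 of the genes are shown because Tgfbr1 gave the steepest rise among the receptors in fl/fl cells, Tgfbr2 and Acvr2a fell there, and Tgfbr2 and Eng were the 2 members with lower levels in all KO libraries than in all fl/fl libraries with TGF-β1. The sequences are RefSeq's, on GRCm38.p6, each the 250 bases before the annotated start, 5′ to 3′ on the gene's strand. Capitals mark CAGAC or GTCTG, the short Smad3 and Smad4 binding element read on either strand, and GGCGCC, a GC-type Smad element that reads the same on both strands. The windows are chr4:47352972-47353221 (+) for Tgfbr1, chr9:116175364-116175613 (-) for Tgfbr2, chr2:48813859-48814108 (+) for Acvr2a and chr2:32646345-32646594 (+) for Eng.
Tgfbr1: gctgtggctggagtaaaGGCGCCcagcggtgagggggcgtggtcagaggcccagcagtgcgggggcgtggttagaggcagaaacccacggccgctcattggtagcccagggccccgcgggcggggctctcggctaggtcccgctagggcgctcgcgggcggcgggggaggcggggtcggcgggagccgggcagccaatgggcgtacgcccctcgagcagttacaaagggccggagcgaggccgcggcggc
Tgfbr2: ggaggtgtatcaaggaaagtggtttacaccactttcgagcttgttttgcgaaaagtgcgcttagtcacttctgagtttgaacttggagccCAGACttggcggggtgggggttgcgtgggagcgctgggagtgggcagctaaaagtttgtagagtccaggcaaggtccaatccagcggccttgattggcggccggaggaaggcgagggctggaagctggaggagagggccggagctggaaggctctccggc
Acvr2a: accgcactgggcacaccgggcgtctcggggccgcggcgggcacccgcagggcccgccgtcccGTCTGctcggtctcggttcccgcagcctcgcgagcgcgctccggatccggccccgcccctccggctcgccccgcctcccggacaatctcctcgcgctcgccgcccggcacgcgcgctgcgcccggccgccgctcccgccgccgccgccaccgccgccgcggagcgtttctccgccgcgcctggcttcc
Eng: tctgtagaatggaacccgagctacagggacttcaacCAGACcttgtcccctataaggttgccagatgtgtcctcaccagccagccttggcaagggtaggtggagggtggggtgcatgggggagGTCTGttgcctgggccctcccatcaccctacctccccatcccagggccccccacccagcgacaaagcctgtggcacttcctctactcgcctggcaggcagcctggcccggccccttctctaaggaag
Windows were found for 8 of the 10 genes, 9 in all, since Tgfbr1 has a second annotated start. CAGAC stood once upstream of Tgfbr2, once upstream of Acvr2a, 2 times upstream of Eng and once in the second window of Tgfbr1, and of 32807 mouse windows of the same length 42.2% held it. GGCGCC stood upstream of Tgfbr1, Bmpr2 and Bmpr1a, against 9.59% of all windows, and these 3 windows had a GC content of 74.8%, 64.0% and 78.8%, against a median of 52.4% over all windows. No window of the 9 held TGACTCA, the AP-1 element, which 4.47% of all windows held. CACCC, a KLF-type box that 52% of windows held, was found upstream of Eng (4 times), Acvr1b, Acvr2a, Acvr1, Tgfbr2, Bmpr1a and in the second window of Tgfbr1, and GAGGAAG, a PU.1-type element that 10.6% held, upstream of Eng, Tgfbr2 and in that second window. All motifs were searched on both strands, and a match describes these letters only.

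In fl/fl macrophages TGF-β1 raised 2 type I receptor transcripts and lowered 2 type II receptors and a co-receptor. Tgfbr1 and Acvr1 rose, Tgfbr2, Acvr2a and Tgfbr3 fell, and Acvrl1, Acvr1b, Bmpr1a, Bmpr2 and Eng did not pass the test (edgeR's quasi-likelihood test on all 16 libraries, adjusted p under 0.05). That is 5 of 10 members, against 15.5% of the 13080 genes called in this comparison, 7.87% higher and 7.61% lower. The libraries of both fl/fl groups did not overlap for 6 members, 3 higher and 3 lower, against 23.9% of genes, 11.4% higher and 12.5% lower. With KO untreated replicate 1 out of the fit, 2 members again rose and 3 fell, against 17.7% of genes. The median log2 fold change of the members was -0.03, against -0.01 over all genes tested, and their median size regardless of sign was 0.51, against 0.24. In bulk RNA, fewer cells of a type and less RNA per cell cannot be told apart.

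In KO macrophages Acvr1 rose and Acvr2a fell, and the number of receptors called depended on the library labelled KO untreated replicate 1. With it, 1 of 10 members rose and 1 fell, against 5.17% of genes, 2.19% higher and 2.97% lower, and 2 members did not overlap, against 6.04%, 2.98% higher and 3.06% lower. Without it, Tgfbr1, Acvr1 and Bmpr2 rose and Acvr2a and Tgfbr3 fell, 5 of 10 members against 14.9% of the 13335 genes then tested, 8.17% higher and 6.7% lower. In that fit 6 members did not overlap, 3 higher and 3 lower, against 23.8% of genes, 11.4% higher and 12.5% lower. With all other libraries kept, the count was 0 when any of replicates 2, 3 and 4 of either KO group was left out, and 1, Acvr1, when KO TGF-β1 replicate 1, any fl/fl untreated library or fl/fl TGF-β1 replicate 1, 2 or 3 was left out. The median log2 fold change of the members was -0.04 with KO untreated replicate 1 and -0.03 without it, against -0.03 and -0.01 over all genes.

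Tgfbr1, the type I kinase that pairs with Tgfbr2 to signal TGF-β, was at 942, 1056, 893 and 467 CPM in the fl/fl TGF-β1 libraries, against 289, 274, 252 and 228 CPM in the fl/fl untreated libraries. Every treated library was higher, with replicate 4 between the rest of its group and the untreated cells. The log2 fold change was 1.69 ± 0.44 (SE, edgeR adjusted p = 0.0167), a 3.22-fold rise. This call was lost when fl/fl untreated replicate 3 or 4 was left out, with an edgeR adjusted p of up to 0.0541. With KO untreated replicate 1 left out, the log2 fold change in fl/fl cells was 1.68 ± 0.24 (edgeR adjusted p = 4.99e-05). The test with all libraries thus includes the spread that this KO library adds.

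In KO cells Tgfbr1 was at 725, 829, 885 and 936 CPM with TGF-β1, against 776, 106, 252 and 232 CPM untreated. The untreated library at 776 CPM is replicate 1, which lay inside the treated range, and replicate 2 was the lowest of the 16. With all libraries the log2 fold change was 1.31 ± 0.43 and did not pass the test (edgeR adjusted p = 0.1003). Without KO untreated replicate 1 the groups did not overlap and Tgfbr1 rose by 2.12 ± 0.27 log2 (edgeR adjusted p = 1.58e-05), a 4.36-fold rise.

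Acvr1, a type I receptor for BMPs and a binding partner for activin, rose less steeply but with tighter libraries. It was at 28.7, 29.0, 33.8 and 32.5 CPM in the fl/fl TGF-β1 libraries, against 22.4, 18.7, 18.2 and 18.3 CPM in the fl/fl untreated libraries. In KO cells it was at 29.6, 34.5, 33.98 and 33.6 CPM with TGF-β1, against 29.1, 15.9, 19.2 and 18.004 CPM untreated. All treated libraries lay above all untreated ones in both genotypes, although KO untreated replicate 1 lay just under the lowest KO TGF-β1 library. Acvr1 rose by 0.68 ± 0.15 log2 in fl/fl cells (edgeR adjusted p = 0.00551), by 0.68 ± 0.15 in KO cells (edgeR adjusted p = 0.0204) and by 0.92 ± 0.12 in KO cells without that library (edgeR adjusted p = 1.8e-05).

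The other type I receptors did not pass the test in either genotype. Acvrl1 (ALK1), which in endothelium carries BMP9 and BMP10 signals, was at 60.9, 51.8, 51.6 and 63.7 CPM in the fl/fl TGF-β1 libraries, against 46.6, 49.5, 50.3 and 51.5 CPM in the fl/fl untreated ones. Those groups just missed each other, with a log2 fold change of 0.20 ± 0.11 (edgeR adjusted p = 0.261). In KO cells the Acvrl1 libraries overlapped, at 41.1, 51.4, 56.9 and 58.8 CPM with TGF-β1 and 50.7, 59.2, 50.2 and 53.9 CPM untreated, and the log2 fold change was -0.04 ± 0.11 (edgeR adjusted p = 0.939), or -0.04 ± 0.12 without KO untreated replicate 1 (edgeR adjusted p = 0.922).

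Acvr1b (ALK4), the main type I receptor for activin, lay between 43.6 and 56.7 CPM in all 16 libraries, with group means of 51.9, 51.2, 50.2 and 49.0 CPM in KO TGF-β1, KO untreated, fl/fl TGF-β1 and fl/fl untreated cells. Its response to TGF-β1 had a 95% confidence interval of -0.17 to 0.21 log2 in KO cells (-0.09 to 0.30 without KO untreated replicate 1) and -0.15 to 0.22 log2 in fl/fl cells. Bmpr1a was at 0.107, 0.637, 0.608 and 0.224 CPM in KO TGF-β1 and 0.382, 0.359, 0.443 and 0.577 CPM in KO untreated libraries. In fl/fl cells Bmpr1a was at 0.546, 0.940, 0.529 and 0.625 CPM with TGF-β1, against 0.359, 1.05, 1.21 and 1.18 CPM untreated. Libraries overlapped in both genotypes, and the interval of its response ran from -1.30 to 0.98 log2 in KO cells (-1.46 to 1.07 without KO untreated replicate 1) and from -1.58 to 0.51 log2 in fl/fl cells, so changes of these sizes were not detectable at such counts.

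**Figure D2:**
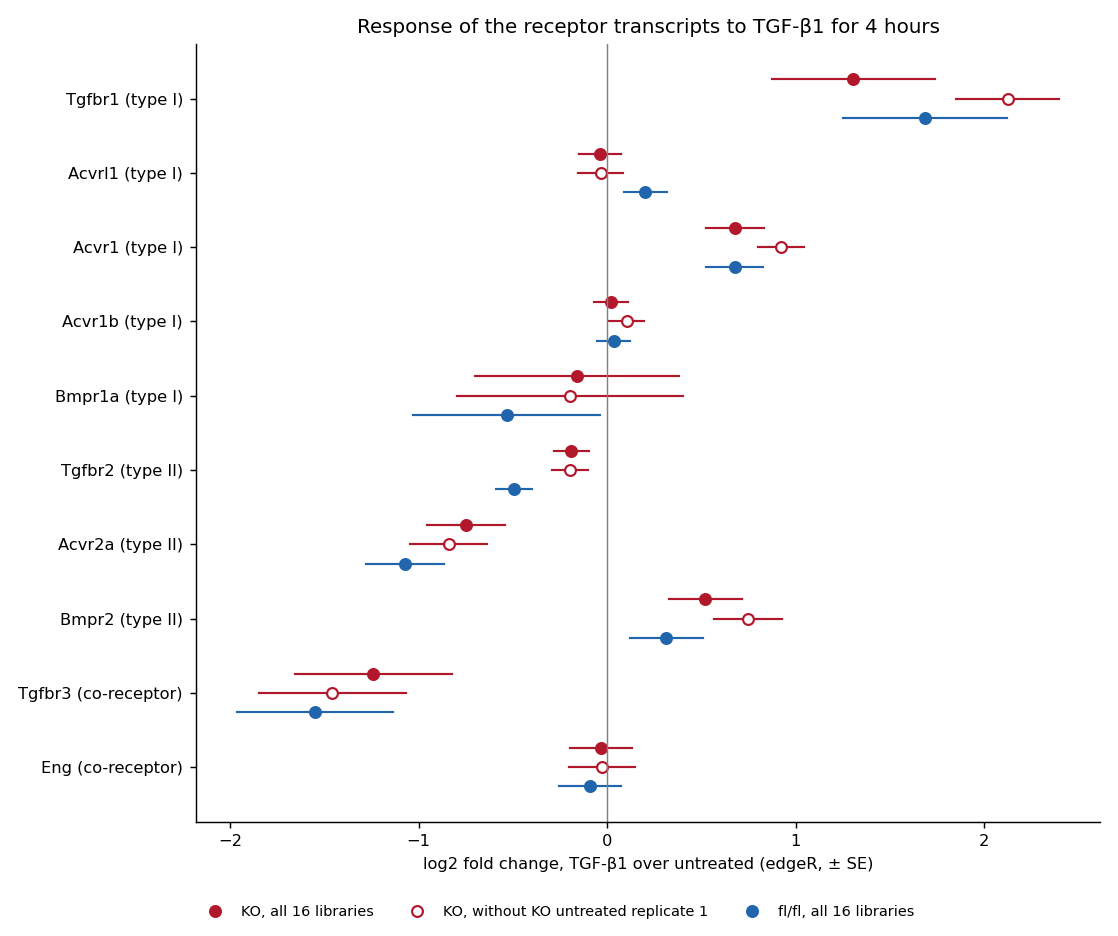
Log2 fold change (TGF-β1 over untreated, edgeR, ± SE) of each receptor gene in KO cells with all 16 libraries (filled red), in KO cells without KO untreated replicate 1 (open red) and in fl/fl cells (blue). Tgfbr1 and Acvr1 lie to the right of 0 and Acvr2a and Tgfbr3 to the left in each fit, and the Tgfbr1 value in KO cells is 1.31 with and 2.12 without that replicate.

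Among type II receptors, Tgfbr2, which binds TGF-β and activates Tgfbr1, fell in fl/fl cells. It was at 190.4, 185, 197 and 187 CPM in the fl/fl TGF-β1 libraries, against 259.8, 259, 270.2 and 279 CPM in the fl/fl untreated libraries. The treated libraries were all lower and the spread within each group was small. The log2 fold change was -0.49 ± 0.09 (edgeR adjusted p = 0.00208), a level 0.71 times that of untreated cells.

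In KO cells Tgfbr2 was at 139, 179, 181 and 177 CPM with TGF-β1, against 178, 199, 196 and 198 CPM untreated. With replicate 1 of the untreated group left out, every treated library lay below every untreated one. The log2 fold change was -0.19 ± 0.09 with that library (edgeR adjusted p = 0.305) and -0.20 ± 0.09 when it was left out (edgeR adjusted p = 0.207), so neither passed edgeR's test. With that library left out, an alternative fit by limma on log2(FPKM + 0.1) called Tgfbr2 lower, at -0.26 log2 (limma adjusted p = 0.0343).

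Acvr2a, a type II receptor for activins and several BMPs, fell in both genotypes. It was at 9.76, 9.92, 10.05 and 4.69 CPM in the fl/fl TGF-β1 libraries, against 21.5, 18.4, 16.5 and 15.9 CPM in the fl/fl untreated libraries. KO libraries held 9.24, 10.6, 9.45 and 10.9 CPM with TGF-β1, against 12.5, 20.3, 16.02 and 18.9 CPM untreated. Treated and untreated libraries did not overlap in either genotype, and fl/fl TGF-β1 replicate 4 lay well below the rest of its group. Acvr2a fell by 1.07 ± 0.21 log2 in fl/fl cells (edgeR adjusted p = 0.00237) and by 0.75 ± 0.21 in KO cells (edgeR adjusted p = 0.0429). In KO cells without untreated replicate 1 it fell by 0.84 ± 0.20 (edgeR adjusted p = 0.00743). The KO call with all libraries was fragile, since it was lost in 14 of the 16 fits that each left out a library. Acvr2a shares 446 exonic bases, 7.84% of its exons in GENCODE M21, with Orc4 on the opposite strand, and Orc4 (a subunit of the origin recognition complex) gave a log2 fold change of -0.38 in fl/fl cells that did not pass the test (edgeR adjusted p = 0.270). Whether counting used strand is not stated, so reads of the overlap cannot be assigned.

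Bmpr2, the type II receptor for most BMPs, was at 202, 225, 200.1 and 133 CPM in the fl/fl TGF-β1 libraries, against 177, 165, 146 and 124 CPM in the fl/fl untreated libraries. Replicate 4 of the treated group overlapped with the untreated cells, while the other 3 lay above all of them. The log2 fold change was 0.31 ± 0.19 (edgeR adjusted p = 0.318). With fl/fl TGF-β1 replicate 4 and KO untreated replicate 1 left out together, an alternative chosen after seeing the data, Bmpr2 passed the test at 0.47 log2 (edgeR adjusted p = 0.0248).

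In KO cells Bmpr2 was at 160.2, 218, 212 and 221 CPM with TGF-β1, against 197, 98.1, 130 and 142 CPM untreated. Only the untreated replicate 1, at 197 CPM, reached into the treated range. With it the log2 fold change was 0.52 ± 0.19 (edgeR adjusted p = 0.138), and without it Bmpr2 rose by 0.75 ± 0.18 (edgeR adjusted p = 0.00679).

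The co-receptor Tgfbr3 (betaglycan), which presents TGF-β2 and inhibins to type II receptors, was scarce and fell in fl/fl cells. It was at 0.546, 0.940, 0.961 and 1.82 CPM in the fl/fl TGF-β1 libraries, against 2.99, 3.78, 3.08 and 2.77 CPM in the fl/fl untreated libraries. These values rest on 9 to 35 counts per treated and 50 to 71 per untreated library, and they did not overlap. Tgfbr3 fell by 1.55 ± 0.42 log2 (edgeR adjusted p = 0.0163), a call lost without fl/fl TGF-β1 replicate 1 (edgeR adjusted p = 0.0540).

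In KO cells Tgfbr3 was at 1.24, 1.13, 0.608 and 0.984 CPM with TGF-β1, against 1.002, 4.41, 1.903 and 2.0996 CPM untreated. Untreated replicate 1 lay among the treated libraries, and replicate 2 was the highest of the 16. The log2 fold change was -1.24 ± 0.42 with all libraries (edgeR adjusted p = 0.0970), and without replicate 1 Tgfbr3 fell by 1.46 ± 0.39 (edgeR adjusted p = 0.0146).

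Eng (endoglin), an endothelial co-receptor that works with Acvrl1 and is also known on activated macrophages, did not pass the test for TGF-β1. It was at 57.1, 76.2, 75.6 and 89.2 CPM in the KO TGF-β1 libraries and 73.2, 55.3, 85.3 and 91.3 CPM in the KO untreated libraries. In fl/fl cells Eng was at 94.7, 102, 90.9 and 98.2 CPM with TGF-β1, against 128, 109.7, 88.9 and 84.0 CPM untreated. Libraries overlapped in both genotypes, with intervals of -0.37 to 0.31 log2 in KO cells (-0.40 to 0.34 without KO untreated replicate 1) and -0.43 to 0.25 log2 in fl/fl cells.

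Because Eng and Acvrl1 are known from endothelium, its markers were read alongside. Of 10 endothelial markers, Tek, Emcn and Cldn5 had at most 3 counts in any library, and Cdh5 and Pecam1 reached at most 1.61 and 1.95 CPM. Vwf, between 24.0 and 137 CPM, and Kdr, between 5.64 and 20.2 CPM, made up most of the summed level. That sum ran from 86.0 to 132 CPM in KO TGF-β1, 38.2 to 84.2 CPM in KO untreated, 107 to 151 CPM in fl/fl TGF-β1 and 73.7 to 86.7 CPM in fl/fl untreated libraries. The summed level of 8 stromal markers stayed between 1.09 and 9.24 CPM. The part of such cells in the Eng and Acvrl1 values was not tested.

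The balance between and within the type I and type II receptors shifted with TGF-β1, as a description without a test. The ratio of Tgfbr1 to Tgfbr2 in FPKM averaged 4.16 ± 0.25 in KO TGF-β1 libraries (SD, n = 4) and 0.828 ± 0.335 in KO untreated libraries without replicate 1 (n = 3), which alone was at 3.62. It averaged 3.68 ± 1.14 in fl/fl TGF-β1 libraries, with replicate 4 at 2.08, and 0.815 ± 0.111 in fl/fl untreated libraries (n = 4 each). The summed FPKM of the 5 type I receptors averaged 184 in KO TGF-β1 and 67.5 in KO untreated without replicate 1 (which was at 175). It averaged 175 in fl/fl TGF-β1, with replicate 4 at 118, and 76.0 in fl/fl untreated cells. The summed type II level was 53.1, 55.6, 53.8 and 70.8 FPKM in the same groups. In KO cells the type II sums of treated and untreated libraries, with SDs of 4.24 and 0.907 FPKM, differed by less than the spread of the treated ones.

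Tgfbr1 took a mean of 80.2% of the type I sum in KO TGF-β1 libraries and 50.4% in KO untreated libraries without replicate 1 (79.1% in that library). Its mean was 78.7% in fl/fl TGF-β1 libraries, with replicate 4 at 67.9%, and 59.5% in fl/fl untreated libraries. Among type II receptors the share of Tgfbr2 was 66.9%, 76.4%, 71.2% and 78.8% in that order, and that of Bmpr2 was 29.7%, 17.6%, 26.2% and 16.7%. In KO untreated replicate 1 these shares were 68.1% and 27.9%. The ratio of Acvr1 to Acvr2a in FPKM lay between 5.04 and 5.82 in fl/fl TGF-β1 replicates 1 to 3. It was at 12.0 in replicate 4, against 1.76 to 1.99 in the fl/fl untreated libraries. In KO cells it lay between 5.31 and 6.21 with TGF-β1, against 1.35 to 2.07 untreated without replicate 1, which was at 4.04.

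**Figure D3:**
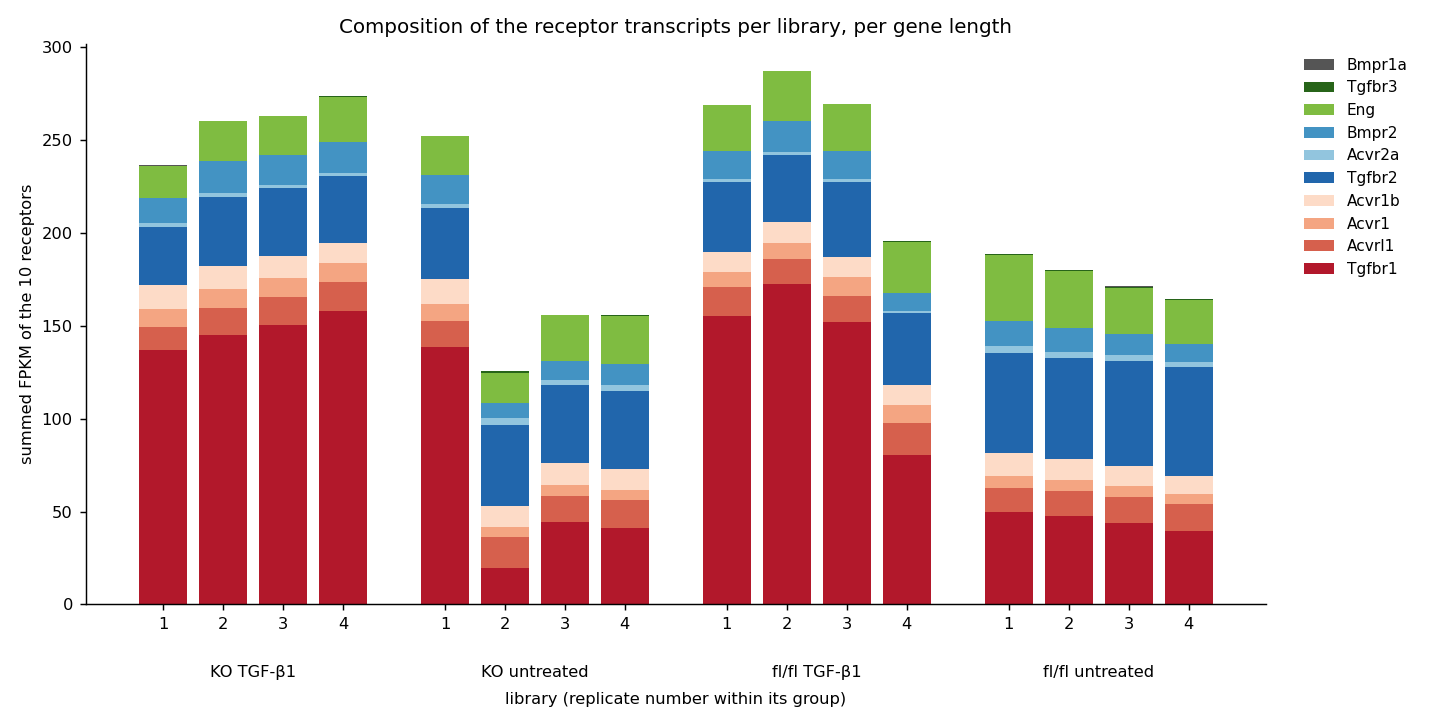
Summed FPKM of the 10 receptor genes in each library, stacked by gene, with libraries numbered within their group; type I receptors are red, type II blue and co-receptors green, and Bmpr1a, in grey, is too low to see in most bars. The Tgfbr1 share is the part that differs most: its mean is 57.2% of the sum in KO TGF-β1 and 25.7% in fl/fl untreated libraries, and KO untreated replicate 1 is at 54.8%.

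Between genotypes no receptor passed the test, untreated or with TGF-β1. Tgfbr2 came nearest: its 4 KO untreated libraries, at 178 to 199 CPM, all lay below the 4 fl/fl untreated libraries, at 259 to 279 CPM. The log2 fold change of KO over fl/fl was -0.47 ± 0.09 with a 95% confidence interval of -0.67 to -0.27 (edgeR adjusted p = 0.0898). With KO untreated replicate 1 left out it was -0.45 ± 0.10 (edgeR adjusted p = 0.0959). In this comparison 0 of 10 members were called with all libraries, against 0.0459% of genes, and 0 without that replicate, against 0.0975%. At an unadjusted edgeR p under 0.05 there were 3 with all libraries, Tgfbr2, Eng and Bmpr1a, all lower in KO, against 10.9% of genes, and 2 without that replicate, Tgfbr2 and Eng, against 11.8%. DESeq2 called Tgfbr2 with all libraries (adjusted p = 3.57e-05), where it called 0.466% of genes, and without that replicate (adjusted p = 0.000826), where it called 0.435%. EdgeR called it when KO TGF-β1 replicate 1 was left out (adjusted p = 0.0154). Tgfbr2 was the only member whose untreated libraries did not overlap between genotypes, with KO untreated replicate 1 or without it; 4.11% of genes lay lower in KO with no overlap with it and 6.94% without it.

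With TGF-β1, edgeR called 0 of 10 members between genotypes, against 0.0382% of genes with all libraries and 0.06% without KO untreated replicate 1. DESeq2 also called 0 of 10, and its share of all genes is not given here. At an unadjusted edgeR p under 0.05 there was 1, Eng, against 5.61% of genes with all libraries and 6.61% without that replicate, when it was again Eng. Tgfbr2, at 139 to 181 CPM in KO and 185 to 197 CPM in fl/fl libraries, and Eng, at 57.1 to 89.2 CPM in KO and 90.9 to 102 CPM in fl/fl libraries, did not overlap and were lower in KO, 2 of 10 members against 2.61% of genes with all libraries and 2.59% of those tested without KO untreated replicate 1. Their log2 fold changes were -0.17 ± 0.09 for Tgfbr2 (edgeR adjusted p = 0.877) and -0.37 ± 0.16 for Eng (edgeR adjusted p = 0.877). For Tgfbr1 the difference was 0.01 log2 with an interval of -0.90 to 0.92, so a difference of up to 0.90 log2 in either direction was not resolved, and without KO untreated replicate 1 it was 0.02 with an interval of -0.48 to 0.51.

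Eng untreated gave a log2 fold change of -0.43 ± 0.16 in KO over fl/fl cells (edgeR adjusted p = 0.414), with overlapping libraries, and -0.43 ± 0.18 without KO untreated replicate 1 (edgeR adjusted p = 0.390). Bmpr1a gave -1.11 ± 0.51 untreated (edgeR adjusted p = 0.449), or -1.07 ± 0.58 without that replicate (edgeR adjusted p = 0.481), and -0.74 ± 0.53 with TGF-β1 (edgeR adjusted p = 0.884). The untreated values of the members besides Tgfbr2, Eng and Bmpr1a lay between -0.42 for Tgfbr3 and 0.39 for Tgfbr1 with all libraries, and between -0.42 for Tgfbr1 and 0.11 for Acvrl1 without that replicate. The Tgfbr1 value thus changed sign, and neither value passed the test.

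**Figure D4:**
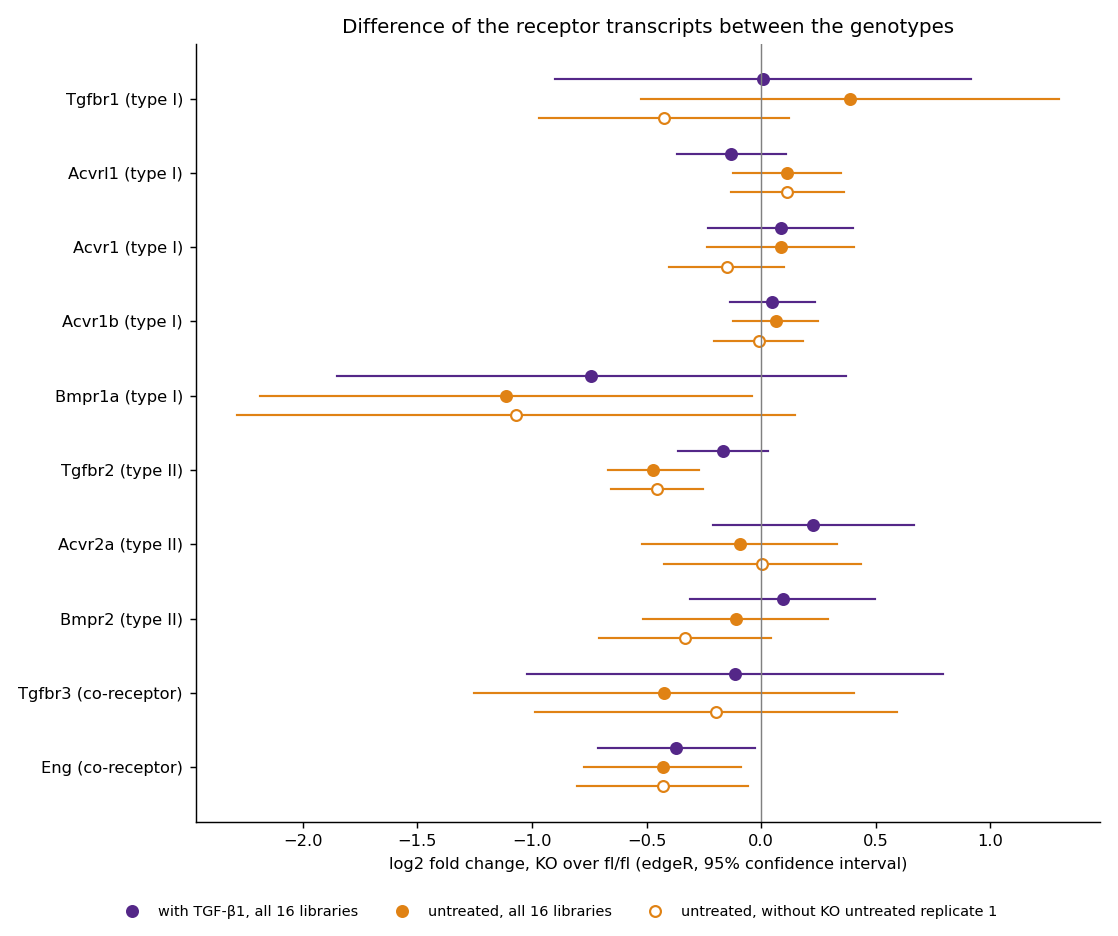
Log2 fold change of KO over fl/fl (edgeR, 95% confidence interval) of each receptor gene with TGF-β1 (purple), untreated with all 16 libraries (filled orange) and untreated without KO untreated replicate 1 (open orange). Intervals are not adjusted over genes; that of Tgfbr2 untreated runs from -0.67 to -0.27, and the Tgfbr1 value changes sign when the replicate is left out.

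The difference between the TGF-β1 responses, KO minus fl/fl, was tested as an interaction. No member passed, and 0 of the 13080 genes (0%) did so in edgeR with all libraries, and 0 of the 13335 then tested without KO untreated replicate 1. In edgeR 275 genes (2.1%) had an unadjusted p under 0.05 with all libraries and 267 (2%) without that replicate, and Tgfbr2 was the 1 member among them in both fits. DESeq2 called 1 gene (0.00765%) with all libraries, not a receptor, and 0 without the replicate. Tgfbr2 had the smallest unadjusted p of the members, 0.0348, with an interaction of 0.30 ± 0.13 log2 (edgeR adjusted p = 0.993), the positive sign meaning a smaller decrease in KO cells. Without that replicate it was also 0.30 ± 0.13 (edgeR adjusted p = 0.981). The fl/fl untreated level of Tgfbr2 was the high one of the 4 groups. For Tgfbr1 the interaction was -0.38 ± 0.60 log2 with all libraries and 0.44 ± 0.35 without KO untreated replicate 1, with intervals of -1.67 to 0.90 and -0.29 to 1.18, so the sign of the difference was not resolved.

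Other genes of the pathway were read from fixed lists, and 0 genes of any list passed edgeR's test in the interaction or between genotypes with all libraries. Without KO untreated replicate 1, Smad7 alone did so between genotypes, and it was lower in KO in both treatments. Among 20 genes for proteins that act on the receptors, 5 rose and 2 fell in fl/fl cells (15.5% of all genes called), with a median log2 fold change of -0.05. Pmepa1, a membrane protein that limits Smad2 and Smad3 access to the receptor, averaged 375 ± 32.4 CPM with TGF-β1, against 2.78 ± 0.311 CPM untreated in fl/fl cells (SD, n = 4 each), and rose by 7.08 ± 1.58 log2. Smad6, an inhibitory Smad of the BMP branch, rose by 4.70 ± 0.80 log2, and Smad7 itself rose, as did the ubiquitin ligase genes Smurf1 and Smurf2, chosen after their values were seen. Dab2, an endocytic adaptor that binds TGF-β receptors, fell by 1.17 ± 0.14 log2 and the ubiquitin ligase Wwp1 by 1.16 ± 0.24. In KO cells 2 rose and 1 fell with all libraries, against 5.17% of all genes called, and 8 rose and 3 fell without KO untreated replicate 1, against 14.9%.

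Among 14 other receptors and co-receptors of the family, 13 were in the table and 7 passed the filter, of which 1 fell and none rose in fl/fl cells, against 15.5% of all genes called. Nrp1 (neuropilin 1), a co-receptor that can bind TGF-β1, averaged 255 ± 26.1 CPM with TGF-β1, against 760 ± 23.4 CPM untreated in fl/fl cells, and fell by 1.58 ± 0.26 log2 there (edgeR adjusted p = 0.00109) and by 1.21 ± 0.26 in KO cells (edgeR adjusted p = 0.0185). Acvr2b, the close relative of Acvr2a and chosen after its values were seen, averaged between 3.11 and 3.21 FPKM in the 4 groups and did not pass the test. The remaining type I and II receptors Acvr1c, Bmpr1b and Amhr2, also chosen after their values were seen, had at most 10, 6 and 3 counts in any library.

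Of 17 ligand genes, 5 passed the filter and 1, Gdf15, fell in fl/fl cells, where 7.61% of all genes fell, by 0.83 ± 0.23 log2 (edgeR adjusted p = 0.0179). Tgfb1 itself, chosen after its values were seen, was between 328 and 514 CPM in all 16 libraries and did not pass the test. Of 6 Smad transducers, Smad3 fell by 0.72 ± 0.15 log2 in fl/fl cells (edgeR adjusted p = 0.00384) and by 0.58 ± 0.15 in KO cells (edgeR adjusted p = 0.0375), and none rose in either with all libraries. Without KO untreated replicate 1, 1 of them rose in KO cells, Smad9, against 8.17% of all genes. In that fit 2 ligand genes fell in KO cells, Bmp2 and Gdf15, against 6.7% of all genes. Smad9 rested on 11 to 37 counts per KO library with TGF-β1 and at most 5 untreated. Bmp2 rested on at most 2 counts with TGF-β1 and 7 to 13 untreated. Smad9 and Bmp2 were chosen after their values were seen.

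Targets downstream of both branches were read as well. Of the 5 tested targets of Smad1 and Smad5, 4 rose in fl/fl cells, where 7.87% of all genes rose, such as the inhibitor of DNA binding Id3 (5.501 ± 0.92 log2), and the list's median was 2.61. Of the 9 tested targets of Smad2 and Smad3, 8 rose, Pmepa1 among them, with a median of 1.76. In KO cells 2 of 5 and 2 of 9 rose with all libraries, against 2.19% of all genes, and 5 of 5 and 8 of 9 rose without KO untreated replicate 1, against 8.17%.

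The genes whose log2 CPM, centred on each gene, came closest to that of a receptor over the 16 libraries were found by the smallest root mean square (RMS) difference. Only genes with an average log2 CPM of at least 1 were searched, so scarcer genes could not be named. For Tgfbr1 they were Cpd (carboxypeptidase D, RMS difference 0.166) and Hgf (hepatocyte growth factor, 0.169), against a median of 1.04 over 9886 genes. For Tgfbr2 they were Atp6v0a1, a subunit of the proton pump of lysosomes (0.0887), and Mrc1, the mannose receptor (0.110), against a median of 0.360. Acvr1 was closest to Nmt1 (0.0955) and Usp30 (0.116), Acvr2a to Pik3c2a (0.107) and Pid1 (0.137), and Tgfbr3 to Rasgrp4 (0.282) and L3mbtl3 (0.335). All share the same libraries, the one labelled KO untreated replicate 1 included.

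The receptors are spread over the genome. In the deposited coordinates (mm10), Acvr2a, Acvr1 and Eng lie on chromosome 2, and Acvrl1 (chr15:101128522-101145336) and Acvr1b (chr15:101174067-101213679) lie 28730 bases apart on the same strand of chromosome 15. Of these neighbours neither passed the test in any of the 5 comparisons. Tgfbr1 (ENSMUSG00000007613) spans chr4:47353222-47414931 on the plus strand and Tgfbr2 (ENSMUSG00000032440) chr9:116087698-116175363 on the minus strand. Besides Acvr2a, Eng shares 61 exonic bases with Fpgs on the opposite strand, and Acvrl1, Bmpr1a and Tgfbr3 share between 127 and 297 exonic bases with noncoding or uncharacterised loci.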

How the data were processed

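RNA sequencing of 16 macrophage libraries, 4 per group, was used. Per the submitters' processing notes the tools were TopHat2 2.0.9, HTSeq 0.6.1 and Cufflinks 2.1.1 and the builds mm10 and GRCm38.p6, with no roles given; how reads were assigned to strands is not stated. The deposited table holds raw read counts of 35275 genes. The deposited FPKM values were made by the authors from those counts, gene length and library total, since 100.0% of positive values fitted that ratio within 0.1%.

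Counts were scaled by TMM and tested with edgeR 4.0.16 (R 4.3.3), a robust quasi-likelihood model with a mean for each of the 4 groups, on the 13080 genes that passed filterByExpr. P-values were adjusted over these genes by Benjamini-Hochberg at 0.05. The script was also run on simulated data, but the outcome is not given here, so nothing is concluded from that run. Totals of 16865591 to 23741079 counts limit receptors with few reads, and intervals cover counting and library spread only. Groups were taken from the labels; no library was a duplicate. Alternatives used DESeq2 1.42.0, limma 3.58.1 on log2(FPKM + 0.1) and log2(FPKM + 1), other scaling, no filter, fewer groups, a replicate block and libraries left out. Tables were read in Python 3.11.15.

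All 10 members are named whatever their values, with Smad7. From each list come up to 2 genes with the highest and 2 with the lowest log2 fold change among those called in fl/fl cells, and, for each member called in either response, the 2 genes most alike. Some genes that this rule takes are not reported here. Members and lists were chosen with earlier results of these data known. The labels do not say that replicate numbers mark shared animals or days. Deviations of same-numbered libraries correlated at 0.123 to 0.181 in the fl/fl response, all 4 over 0.1. Elsewhere they ran from -0.175 to 0.239, with 2 of 12 over 0.1. The main fit used no pairing in either genotype, so its p-values leave out any link between same-numbered libraries. The replicate block, fitted as an alternative, covered both genotypes together.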

Additional observations from a re-analysis of the deposited data

Results flagged for a closer look

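In 5 of 40 tests over groups of 4 libraries, 1 library lay farther from the rest than Dixon's criterion allows; chance gives about 1 in 20. Tgfbr2 was at 139 CPM in KO TGF-β1 replicate 1, against 177 to 181 CPM in the other 3, and at 178 CPM in KO untreated replicate 1, against 196 to 199 CPM in the other 3. Bmpr2 was at 160 CPM in KO TGF-β1 replicate 1, against 212 to 221 CPM in the other 3. Acvr2a was at 4.69 CPM in fl/fl TGF-β1 replicate 4, against 9.76 to 10.05 CPM, and that library also had counts for the fewest genes of the 16, 14915. Acvr1 was at 22.4 CPM in fl/fl untreated replicate 1, against 18.2 to 18.7 CPM in the other 3.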

How the results depend on the processing

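Of 1409 member log2 fold changes under alternatives, 1350 stayed on the same side of the threshold, 28 lost the call and 31 gained it. None changed sign while past the threshold. Among the 1350, 90 changed sign with neither value past the threshold. The number of receptors called in the KO response, 2 with all libraries, was 0 when only the 2 KO groups were fitted. Without KO untreated replicate 1 it was 5 in edgeR, against 14.9% of all genes called. It was then also 5 in the replicate block, in DESeq2 and with the 2 groups alone, and 6, with Tgfbr2 gained, in limma on log2(FPKM + 0.1). In alternatives chosen after seeing the data it was again 5, with fl/fl TGF-β1 replicate 4, or that library and KO untreated replicate 2, left out as well. Leaving out 1 library at a time gave 0 to 5. For the other fits of either response the share of all genes called is not given here, so those counts compare settings only. Between untreated genotypes the count was 1, Tgfbr2, in DESeq2 with or without KO untreated replicate 1, and 0 to 1 with 1 library left out. In the fl/fl response it was 4 to 5 with 1 library left out, and without the filter on low counts Tgfbr1 missed the threshold (edgeR adjusted p = 0.0508). The replicate block changed no receptor call in the fl/fl response, with 5 called. With the block and all libraries, 2 were called in the KO response: Tgfbr1 was gained (edgeR adjusted p = 0.0470) and Acvr2a lost (edgeR adjusted p = 0.0614). Tgfbr1 was also gained there in limma on log2(FPKM + 0.1) (limma adjusted p = 0.0246) and on log2(FPKM + 1) (limma adjusted p = 0.0245). The fit on log2(FPKM + 0.1) lost Acvr2a (limma adjusted p = 0.0570), and DESeq2 with all libraries gained Tgfbr3 (DESeq2 adjusted p = 0.0447). The cause of these changes was not tested. Low counts limit Bmpr1a (2 to 28 per library) and Tgfbr3 (9 to 86).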
